A study of Mus musculus with 283 samples.

Results

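Transcripts of 9 genes of the macrophage compartment were followed in mouse mammary tumours treated with immune checkpoint antibodies: the ligands Csf1 and Il34, their shared receptor Csf1r, the identity genes Adgre1, Cd68 and Mertk, and the lipid and remodelling genes Trem2, Apoe and Spp1. They were taken by gene symbol, 9 of the 45657 genes kept from the tumour table, and the same 9 were found among the 47453 genes of the table of cultured lines. All 9 were above 0 in 263 of 263 tumour and gland samples, and all 9 passed the filter on low values. Of the 283 samples, 264 were RNA-seq libraries of tumours or normal mammary glands (107 of models that the labels class as sensitive to therapy, 86 resistant, 62 of unknown response and 9 glands), and 6 were libraries of cultured lines. The sensitive models treated were T11-UV, T11-Apobec, KPB25L and KPB25L-UV, and the resistant ones were T11, p53-2225L and p53-2336R. Models compared only as untreated tumours were KPB25L-Apobec, classed sensitive, and KPB-1A, p53-2153F, p53-2224L and p53-9263-3, classed resistant. T11 and KPB25L are mammary tumour lines, and UV or Apobec in a name marks a derivative. Per the labels, tumours of the treated models grew at their orthotopic site in a syngeneic host. They were allocated to an arm on reaching a diameter of 5 mm. Treated mice received anti-PD1 at 10 mg per kg and anti-CTLA4 at 125 ug, each in 100 ul into the peritoneum, and are called treated below. Untreated mice of the same model and labelled time were the controls. Tumours were labelled 3 days, 7 days or end stage, and the table headers call the untreated libraries labelled 3 days "Pretreatment". These 3-day controls may thus not match the treated tumours in time. The untreated end-stage models compared with glands were KPB-Primary, C3-TAG, PyMT and ILC-Pik3Ca/Cdh1Null, and the glands came from BALB/c and FVB mice, some of them pools. The sources used here give no host ages and no genotypes beyond these names.

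Csf1 and Il34 are secreted cytokines that bind the receptor tyrosine kinase encoded by Csf1r, and monocytes and macrophages need that receptor to survive and multiply. Adgre1 encodes F4/80, the classical surface marker of mouse macrophages, Cd68 encodes a lysosomal glycoprotein abundant in phagocytes, and Mertk encodes a receptor for dying cells. Trem2 is a lipid-sensing receptor that signals through the adaptor Tyrobp, Apoe is a lipid carrier secreted by many macrophages, and Spp1 encodes osteopontin, a matrix protein that tumour cells and macrophages both secrete. In mammary tumours, macrophages driven by Csf1 are a well known part of the stroma. In bulk tumour RNA, fewer macrophages and less of a transcript per macrophage cannot be told apart.

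Levels are given as log2(value + 1) of the authors' upper-quartile normalized signal, which does not allow levels of different genes to be compared. Differences are treated minus untreated unless said otherwise, in log2 units ± SE from limma, with p adjusted by Benjamini-Hochberg over all genes tested (20848 for therapy) and called at 0.05. Estimated depth ran from 3.45 to 149.13 M reads over tumours and glands (median 51.29 M) and from 36.11 to 76.63 M over the cultured lines. The 7-day comparison rests on 18 treated tumours and 15 controls from the 4 sensitive models, plus 4 and 4 from T11, the resistant model taken at that time. A panel of 50 T11 marker transcripts averaged 6.22 to 8.35 in 6 of the 27 libraries labelled KPB25L-UV and 1.62 to 3.28 in the other 21, so those 6 hold T11 transcripts against their label. They are untreated replicates 3 and 4 and treated replicates 1 and 5 at 7 days, untreated replicate 3 at 3 days and untreated replicate 2 at end stage. Where stated, therapy and growth results of the members are also given without them. Counts and differences of other gene lists and cell type markers include them.

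The 250 bases before the RefSeq starts (GRCm38.p6) of 6 of the 9 members were searched on both strands for GAGGAA and GGAAGT, the overlapping cores of the motif of PU.1, the macrophage factor encoded by Spi1. Entries for Csf1r, Il34 and Adgre1 were not found in the promoter table. At least 1 of the motifs was present in 5 of 9 windows, which belong to Cd68, Trem2, Spp1 and Apoe. Over all 32851 windows of the same length, 36.7% hold at least 1 of them, 23.3% for GAGGAA and 19.7% for GGAAGT. The windows of Cd68 and Trem2, which differed most of the 9 at 7 days of therapy averaged over the sensitive models, and of Spp1, which differed most between tumours and glands, are shown 5′ to 3′ with the motif in capitals (TTCCTC is GAGGAA on the other strand, and in Spp1 the motifs overlap). They are chr11:69666171-69666420 (minus strand), chr17:48346151-48346400 (plus) and chr5:104434861-104435110 (plus). A match describes the letters only.
Cd68: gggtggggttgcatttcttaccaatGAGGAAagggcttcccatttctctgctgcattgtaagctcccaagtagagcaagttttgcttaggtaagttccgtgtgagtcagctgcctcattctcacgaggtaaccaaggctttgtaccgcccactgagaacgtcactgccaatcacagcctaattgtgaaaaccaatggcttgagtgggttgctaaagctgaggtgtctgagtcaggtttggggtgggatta
Trem2: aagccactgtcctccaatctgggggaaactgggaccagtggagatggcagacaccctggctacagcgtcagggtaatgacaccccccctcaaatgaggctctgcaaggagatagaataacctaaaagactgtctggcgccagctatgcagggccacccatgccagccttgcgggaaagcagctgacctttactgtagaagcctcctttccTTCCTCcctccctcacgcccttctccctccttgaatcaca
Spp1: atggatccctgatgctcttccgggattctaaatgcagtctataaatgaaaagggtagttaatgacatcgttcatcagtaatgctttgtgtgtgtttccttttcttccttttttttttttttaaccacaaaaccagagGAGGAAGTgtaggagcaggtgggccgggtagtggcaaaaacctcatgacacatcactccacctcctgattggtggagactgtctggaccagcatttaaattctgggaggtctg

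In GRCm38 coordinates of the GENCODE annotation, Csf1 lies at chr3:107741048-107760469 (minus strand), Il34 at chr8:110741829-110805924 (minus), Csf1r at chr18:61100598-61132149 (plus), Adgre1 at chr17:57358691-57483527 (plus) and Cd68 at chr11:69664213-69666153 (minus). Mertk lies at chr2:128698956-128802894 (plus), Trem2 at chr17:48346401-48354147 (plus), Apoe at chr7:19696109-19699188 (minus) and Spp1 at chr5:104435118-104441050 (plus). All 9 are annotated as protein coding.

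Cultured tumour cells carried the ligand and osteopontin transcripts but almost none of the receptor or of the surface markers. The 6 lines were 3 of the T11 family and 3 of the KPB25L family with 1 library each, so the values have no replicate check and no test. Csf1 signal was 38087.5 in T11_EF1A_APOBEC_CELL_LINE, 61079.3 in T11_V5_CELL_LINE and 54215.8 in T-11-CellLine-VALIDATION. It was 4837.1 in KPB_25L_V1_5_CELL_LINE, 3544.2 in KPB_EF1A_APOBEC_CELL_LINE and 15119.6 in KPB-25L-CellLine-VALIDATION. Each T11 line was above each KPB25L line, 7.9-fold by the family means on the log2 scale. In the same order, Spp1 signal was 126020.7, 185457.3 and 89963.7 in T11 lines against 3914.9, 942.0 and 1838.6 in KPB25L lines, 67.6-fold apart. Il34 was 969.6, 863.7 and 607.6 against 249.3, 451.0 and 602.4, so the families touched almost end to end and the family means were 2.0-fold apart.

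Mertk separated the families most, with 299.1, 805.1 and 950.2 in T11 lines and 0.4, 0.4 and 1.0 in KPB25L lines. The 4 members whose families did not overlap (Csf1, Il34, Spp1 and Mertk) compare with 31.1% of the 26290 genes compared. Csf1r was 12.2, 0.4 and 0.7 in T11 lines and 2.8, 3.3 and 1.6 in KPB25L lines. Adgre1 and Trem2 did not exceed 0.4 and 0.7 in any of the 6. Cd68 lay between 49.5 and 251.6 and Apoe between 37.6 and 296.4, with the families overlapping. Of 12 other genes of lipid-associated macrophages, 6 were above 1000 in each of the 6 lines, against 6.93% of all genes, so that list is not specific to macrophages here. Of 13 pan-macrophage genes 1 was above 1000 in every line and 9 were under 10, as were 66.7% of all genes.

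**Figure D1:**
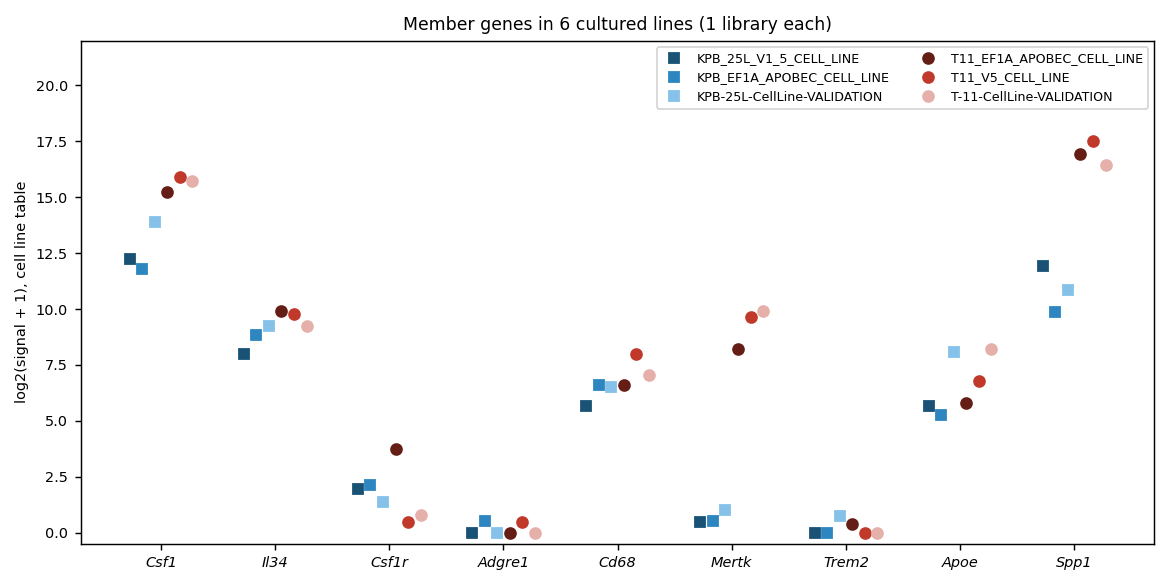
Signal of the 9 genes in the 6 cultured lines, as log2(signal + 1) in the cell line table, with 1 point per line (squares, KPB25L family; circles, T11 family). Csf1, Mertk and Spp1 stand higher in the 3 T11 lines, while Adgre1 and Trem2 lie near 0 in all 6.

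The tables of tumours and lines were normalized separately. They were set beside each other only by the share that a member exceeds among the genes above 0 in its own library. Such genes numbered 19079 to 21539 in lines and 16341 to 25822 in tumours and glands, and a member at 0 has no share. The share ranks signal within a library and is no measure of the abundance of a gene against other genes. Csf1 exceeded 99.8 to 99.9% of genes in T11 lines and a median of 97.5% in the 74 tumours of the T11 family. In the KPB25L family these shares were 93.5 to 99.3% in lines and a median of 93.9% in 58 tumours. Il34 exceeded 56.5 to 74.5% of genes over the 6 lines, against medians of 84.3% in T11 family and 68.0% in KPB25L family tumours. Spp1 was at 100.0% in T11 lines and tumours, and at 74.0 to 93.5% in KPB25L lines against 99.7% in KPB25L tumours. Mertk exceeded 58.4 to 74.2% in T11 lines and a median of 65.9% in their tumours, but 0.4 to 15.9% in KPB25L lines against 58.2% in theirs. The receptor, the surface markers and Apoe stood far lower among the genes of a library in lines than in tumours. Adgre1 exceeded at most 0.6% of genes in any line and medians of 86.5 and 75.6% in tumours of the T11 and KPB25L families, and Trem2 at most 10.8% and medians of 83.2 and 74.1%. Csf1r exceeded 0.5 to 37.6% of genes in lines but medians of 98.4 and 97.1% in tumours. Apoe went from 41.8 to 57.9% in lines to 99.9% in tumours of both families, and Cd68 from 45.9 to 55.1% to medians of 93.4 and 88.7%.

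Across untreated tumours of 12 models labelled 3 days, the T11 family stood highest for the axis. Csf1 means were 14.33 ± 0.23 (SD, n = 4) in T11-Apobec, 13.99 ± 0.20 in T11 and 13.79 ± 0.16 in T11-UV, followed by KPB25L at 13.35 ± 0.52 (n = 5). Neighbours overlapped down to p53-2336R at 11.25 ± 0.19 (n = 3), below which p53-2225L at 10.77 ± 0.20 and KPB-1A at 10.21 (n = 2) each stood apart. Csf1r followed a like order, from 14.53 ± 0.28 in T11-Apobec, 14.29 ± 0.14 in T11 and a range of 13.79 to 14.31 in T11-UV down to 10.88 in KPB-1A. Il34 broke between families: the T11 models averaged 11.75 to 11.92, and none of their 12 tumours overlapped the next model, KPB25L-Apobec, at 10.61 ± 0.36. Adgre1 ranged from T11-Apobec at 12.24 ± 0.36 to KPB-1A at 7.75 ± 0.08, which stood apart from p53-2225L at 8.86 ± 0.31.

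Spp1 and Mertk had orders of their own. Spp1 averaged 18.66 ± 0.36 in T11-UV, 18.18 ± 0.55 in T11, 17.92 ± 0.51 in p53-2224L and 17.39 ± 0.17 in T11-Apobec, and no tumour of these 4 models overlapped KPB25L at 15.43 ± 0.68. Its lowest levels were 11.75 in p53-2225L and 10.19 in p53-2336R. Mertk averaged 9.28 or above in 8 models, and 7.82 in KPB-1A, 7.14 in p53-2224L, 7.14 in p53-9263-3 and 6.73 in p53-2153F. Single tumours overlapped between these sets, with 8.24 in p53-2224L and 8.09 in KPB25L-Apobec. The lowest 2 models for Spp1 thus were not low for Mertk, which averaged 9.74 in p53-2336R. Trem2 was highest in T11-Apobec at 12.38 ± 0.18, apart from T11-UV at 11.79 ± 0.32 but not from KPB25L-UV, which reached 12.20. Apoe was highest in KPB25L-UV at 17.30 ± 0.75, or 17.50 without the library holding T11 transcripts, and lowest in p53-2225L and KPB-1A, at 14.59 and 14.18, which stood apart from the rest.

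**Figure D2:**
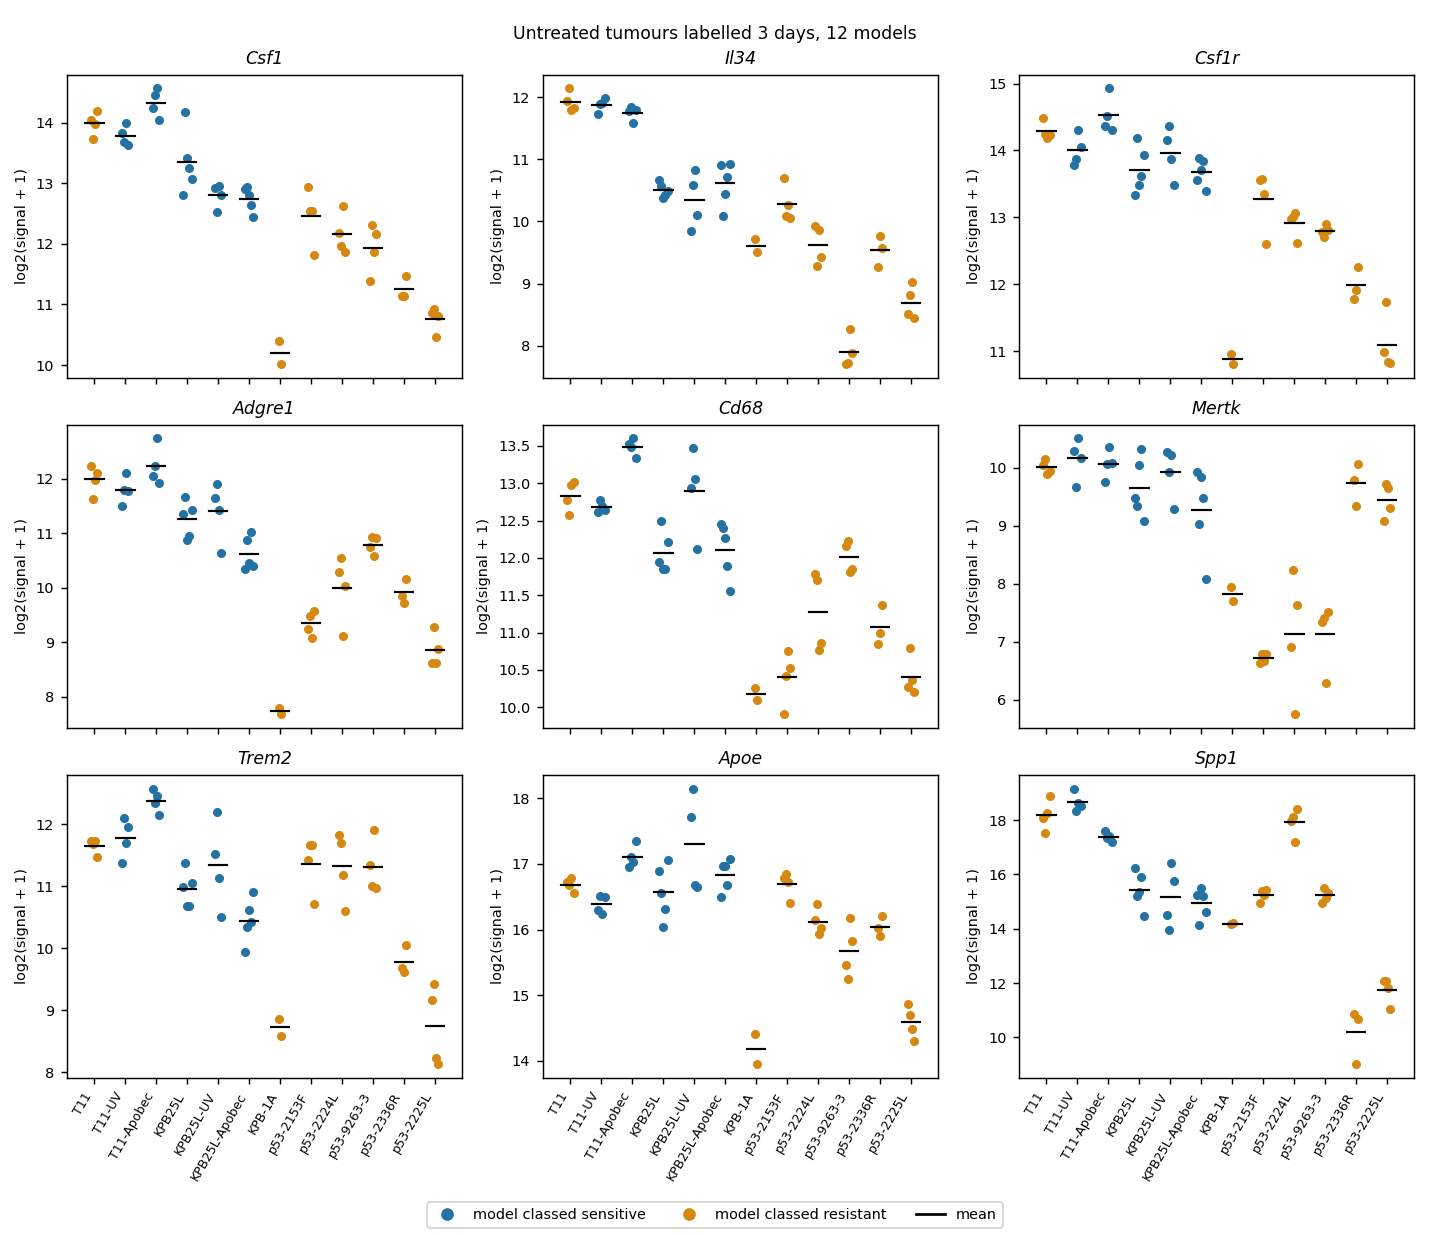
Each untreated tumour labelled 3 days in 12 models, as log2(signal + 1), with lines at model means and colour for the labelled response class. Il34 separates the 3 T11 models from the rest, and Mertk is low in KPB-1A, p53-2153F, p53-2224L and p53-9263-3.

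Set against untreated KPB25L at 3 days, untreated T11 tumours had 3 members called higher and none lower, beside 12.2% of genes called higher and 20.4% lower. Spp1 was 18.09, 17.52, 18.25 and 18.87 in T11 tumours and 16.23, 15.22, 15.34, 15.89 and 14.46 in KPB25L tumours, without overlap, a difference of 2.75 ± 0.60 (6.75-fold, adjusted p = 7.75e-05). Il34 differed by 1.42 ± 0.28 (2.67-fold, adjusted p = 1.85e-05), also without overlap. Cd68 differed by 0.76 ± 0.31 (adjusted p = 0.0448), a call lost in 6 of 9 refits without 1 tumour, and Csf1 by 0.65 ± 0.28, which was not called (adjusted p = 0.0688). T11 and KPB25L were read on different flow cells. With a flow cell term no member was called, and Cd68 turned to -0.25 (adjusted p = 0.921), so model and flow cell cannot be told apart for any member.

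Grouped by labelled class, the means of the sensitive models exceeded those of the resistant ones by 0.97 to 1.65 for the 9 members, with a member median of 1.52 beside 0.04 over all 17920 genes. With 12 model means as replicates, limma called no member and no gene (0%), also without the library holding T11 transcripts, while 7 members and 3679 genes had an unadjusted p under 0.05. Csf1 differed by 1.58 ± 0.54 (adjusted p = 0.123), Csf1r by 1.52 ± 0.50 (adjusted p = 0.11) and Cd68 by 1.48 ± 0.44 (adjusted p = 0.089). No class difference was thus called with all models, but the count changed when T11, a resistant model at the top of the order, was left out. Without it Csf1 (1.94), Csf1r (1.82), Adgre1 (2.02), Cd68 (1.76) and Il34 (1.74) were called, with 2235 genes in all. Sensitive models here are derivatives or parents from the T11 and KPB25L lines, while the resistant ones apart from T11 come from other lines, so class and line of origin cannot be told apart.

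After 7 days of therapy, the sensitive tumours carried more Cd68, Trem2, Apoe and Csf1r transcript, while neither ligand was called. Of the 9 members 4 rose and none fell, beside 15.5% of all genes called higher, 21.2% lower and 36.7% in either direction. The median difference was 0.39 over members and -0.07 over all genes. Cd68, Trem2, Apoe, Csf1r and Adgre1 were each higher on average in 4 of 4 models. Cd68, Trem2 and Apoe were called under every alternative run, including the 33 refits that left out 1 tumour each. Without the libraries holding T11 transcripts their differences were 0.90, 0.81 and 0.66. T cell markers moved with these genes, with 8 of 8 called higher and a median difference of 2.42, and their part in the result was not tested.

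Cd68, the lysosomal marker, gave the clearest difference. In T11-Apobec it was 12.82, 12.79, 12.80 and 12.77 in untreated and 14.72, 14, 14.83 and 14.24 in treated tumours. T11-UV had 12.53, 12.43, 12.67 and 12.67 untreated and 14.03, 13.70, 13.52 and 13.30 treated. All 8 treated tumours of these derivatives were above all their controls. In KPB25L it was 11.53, 11.70 and 11.74 untreated and 12.53, 11.47, 11.73 and 13.06 treated, which overlapped. KPB25L-UV ranged from 11.59 to 12.99 untreated and from 11.84 to 14.95 treated, and its highest treated tumour was among those holding T11 transcripts. Without these it was 11.59 and 12.16 untreated and 11.84 to 12.60 treated, also with overlap. Averaged over the 4 models Cd68 rose by 0.93 ± 0.16 (1.9-fold, adjusted p = 2.73e-06).

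Csf1r, the receptor, rose by 0.39 ± 0.15 (1.31-fold, adjusted p = 0.0355). In T11-UV it was 14.04, 14.01, 12.44 and 14.13 in untreated and 14.53, 14.98, 14.41 and 15.18 in treated tumours. The arms did not overlap, but untreated replicate 3 lay far below its group. Its neutrophil markers summed to 16.13 against 9.96 to 11.61 in the other 3 controls, and their part in the result was not tested. Without that tumour Csf1r differed by 0.29 (adjusted p = 0.126). In T11-Apobec it was 14.56, 14.27, 14.23 and 14.36 untreated and 14.66, 14.61, 14.56 and 14.67 treated, a small shift whose rounded ranges meet at 14.56. The call was also lost in 6 further refits without 1 tumour, with a flow cell term (0.42, adjusted p = 0.136), without the libraries holding T11 transcripts (adjusted p = 0.0567) and in the 3 models whose arms shared a flow cell (0.15, adjusted p = 0.535).

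Adgre1 differed by 0.42 ± 0.18 (adjusted p = 0.0574), just past the threshold, and was called without the libraries holding T11 transcripts (0.54, adjusted p = 0.021). It was 11.33, 11.69, 11.06 and 11.88 in untreated T11-UV tumours against 12.16, 13.02, 11.90 and 13.07 in treated ones, which did not overlap. Mertk differed by 0.19 ± 0.20 (95% interval -0.19 to 0.58, adjusted p = 0.455).

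Of the lipid genes, Trem2 rose by 0.81 ± 0.19 (1.75-fold, adjusted p = 0.000391) and Apoe by 0.73 ± 0.17 (1.66-fold, adjusted p = 0.000258). In T11-Apobec, Trem2 was 11.39, 11.41, 11.49 and 11.58 in untreated and 14.02, 12.54, 12.98 and 13.02 in treated tumours, with no overlap. In T11-UV it was 12.59, 11.59, 11.55 and 11.95 untreated and 13.28, 12.44, 13.37 and 11.69 treated, which overlapped. KPB25L gave 9.99, 11.98 and 11.01 against 11.73, 11.23, 11.37 and 12.02, also with overlap. Apoe in T11-Apobec was 16.47, 16.61, 16.65 and 16.43 untreated and 17.79, 17.42, 17.07 and 17.43 treated, with no overlap. In KPB25L-UV its untreated values were 16.48, 16.39, 16.04 and 15.68, all below the lowest treated tumour at 16.59. Without the libraries holding T11 transcripts 16.48 and 16.39 stood below treated values from 16.63. In KPB25L the untreated tumours spread from 15.80 to 17.47 around treated values of 16.94 to 17.45.

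The ligands showed no shared direction at 7 days. Csf1 differed by -0.15 ± 0.15 (95% interval -0.45 to 0.14, adjusted p = 0.445) and was higher in 1 of 4 models. That model was T11-UV, where untreated tumours had 13.99, 13.80, 13.38 and 13.76 and treated ones 14.05, 14.37, 14.07 and 14.73, with no overlap. Its difference of 0.57 ± 0.30 was not called (adjusted p = 0.276). Il34 differed by -0.17 ± 0.15 (95% interval -0.46 to 0.13, adjusted p = 0.386) and was higher in 2 of 4 models. In T11-Apobec it was 11.16, 11.24, 11.23 and 11.44 untreated and 10.48, 11.05, 10.66 and 10.90 treated, all lower, a difference of -0.50 ± 0.30 that was not called (adjusted p = 0.206). Mean T11 markers in the same treated tumours were 6.85 to 7.91, below 8.37 to 8.54 in the controls, and their part in the result was not tested. Without the KPB25L-UV libraries holding T11 transcripts the differences over the 4 models were -0.11 for Csf1 and -0.05 for Il34, neither called.

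**Figure D3:**
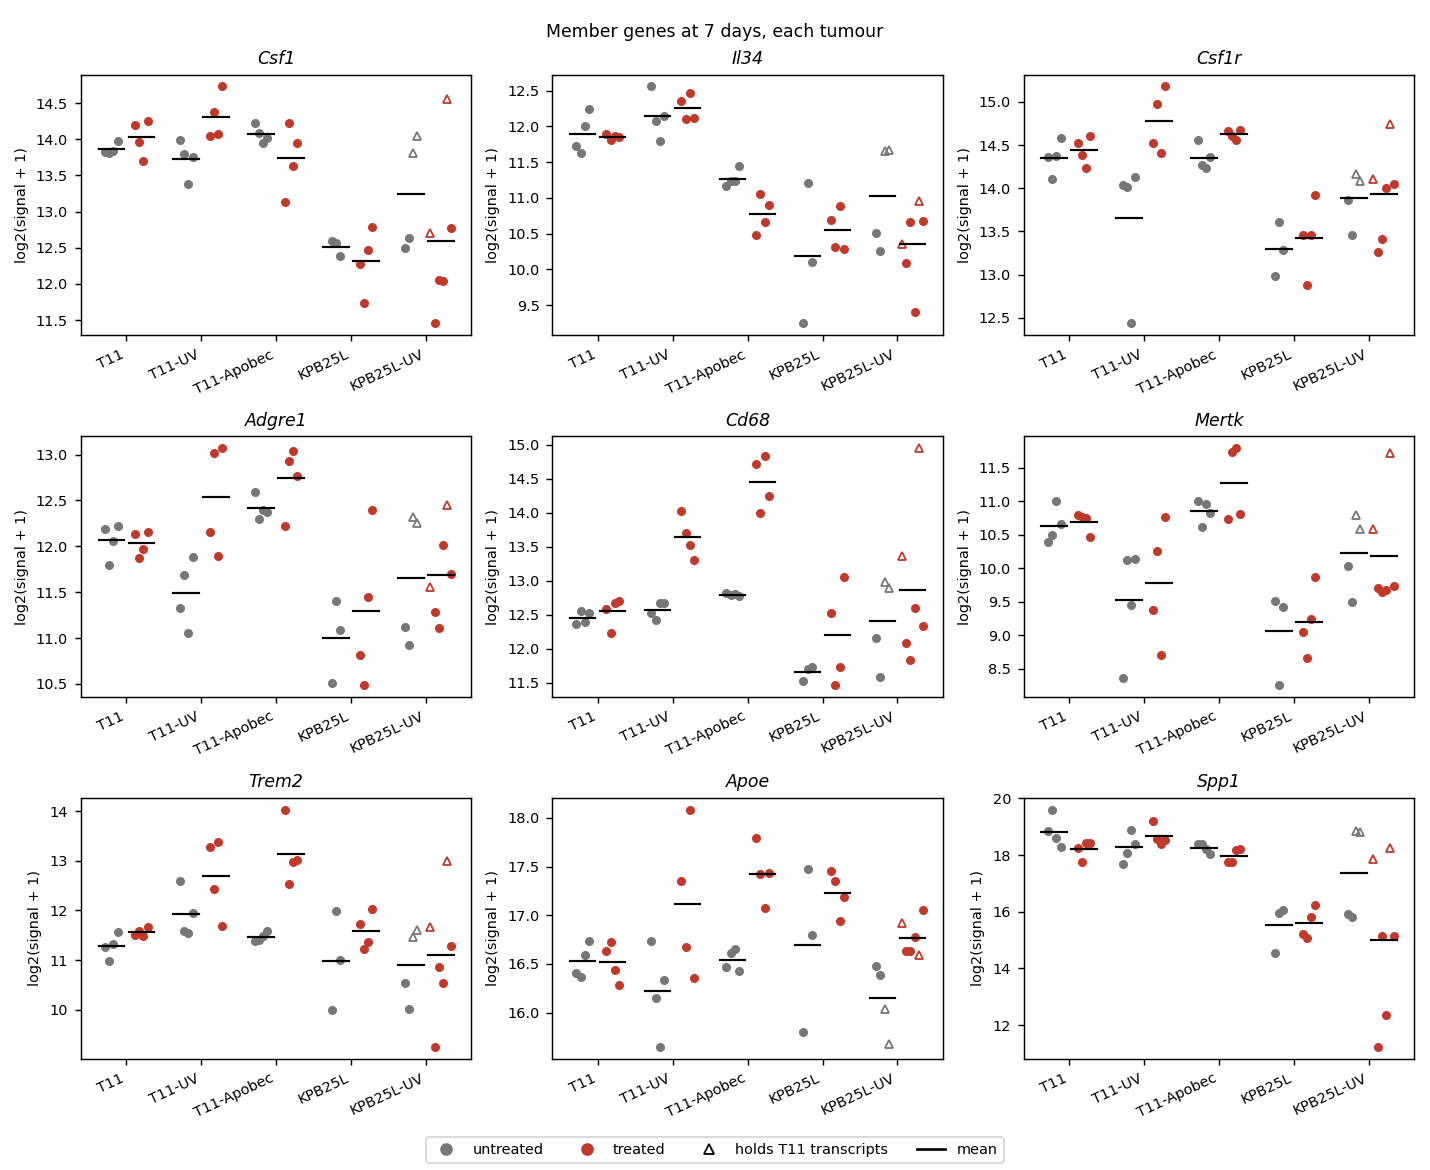
The 9 genes in each tumour at 7 days, as log2(signal + 1), for T11 and the 4 sensitive models (grey, untreated; red, treated; open triangles, KPB25L-UV libraries holding T11 transcripts; lines, means). Cd68 separates the arms of T11-UV and T11-Apobec, and the arms of T11 overlap for each gene.

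By model, T11-Apobec had 3 members called (Cd68, 1.65 ± 0.32, adjusted p = 5.08e-05; Trem2, 1.67 ± 0.38, adjusted p = 0.000432; Apoe, 0.89 ± 0.33, adjusted p = 0.0345), beside 13.7% of genes called higher, 15.7% lower and 29.4% in either direction. The arms of 5 members did not overlap there, beside 45.2% of genes. T11-UV had 2 called (Csf1r, 1.12 ± 0.31, adjusted p = 0.0109; Cd68, 1.06 ± 0.32, adjusted p = 0.0244), beside 4.31% of genes called higher, 3.15% lower and 7.46% in either direction, and 4 members without overlap, beside 11.5%. Leaving out 1 tumour at a time ended the call of Apoe in T11-Apobec in 5 of 8 refits and that of Cd68 in T11-UV in 4 of 8. Without untreated replicate 3 Csf1r in T11-UV differed by 0.72 (adjusted p = 0.225). The arms of T11-UV were read on different flow cells, so arm and flow cell cannot be told apart in that model. KPB25L had no member and no gene called (0 members and 1199 genes at an unadjusted p under 0.05). Summed T cell markers went from 10.46 to 11.19 in untreated to 13.04 to 13.70 in treated T11-Apobec tumours, and from 9.04 to 10.89 to 12.36 to 12.80 in T11-UV.

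KPB25L-UV gave a single call, a fall of Spp1, beside 19.4% of genes called in either direction. Among libraries without T11 transcripts, Spp1 was 15.91 and 15.82 in untreated and 11.24, 15.14, 12.37 and 15.15 in treated tumours, which did not overlap. Among those with T11 transcripts it was 18.85 and 18.83 untreated and 17.87 and 18.26 treated, at the levels of T11 tumours. With all 10 tumours Spp1 fell by 2.35 on the log2 scale (SE 0.57, adjusted p = 0.00201), and without the 4 holding T11 transcripts the difference was -2.39 (adjusted p = 0.0052). A fit on the groups compared alone gave an adjusted p of 0.392. The lowest treated tumour, at 11.24, had summed adipocyte markers of 19.41, and the next, at 12.37, had 14.64. Their summed T cell markers were 14.65 and 14.88, and the part of either marker list in the result was not tested. Over the 4 sensitive models Spp1 differed by -0.54 ± 0.31 and was not called (95% interval -1.16 to 0.08, adjusted p = 0.168), with 2 of 4 models higher, and by -0.55 without those libraries (adjusted p = 0.117).

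In T11, the resistant parent of the T11 derivatives, no member and no gene (0%) was called at 7 days, and 0 members and 61 genes had an unadjusted p under 0.05. Cd68 was 12.36, 12.55, 12.40 and 12.53 in untreated and 12.59, 12.23, 12.68 and 12.71 in treated T11 tumours. Trem2 was 11.27, 10.98, 11.33 and 11.56 untreated and 11.51, 11.59, 11.49 and 11.67 treated. Both genes overlapped between arms. The sensitive models and T11 were not shown to differ: the difference of differences was 0.83 ± 0.36 for Cd68 (95% interval 0.12 to 1.55, adjusted p = 0.47), 0.74 ± 0.37 for Apoe (adjusted p = 0.546) and 0.53 ± 0.42 for Trem2 (adjusted p = 0.721). None of the 9 was called in that test, with or without the libraries holding T11 transcripts, 2 had an unadjusted p under 0.05, and 0.0048% of genes were called.

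**Figure D4:**
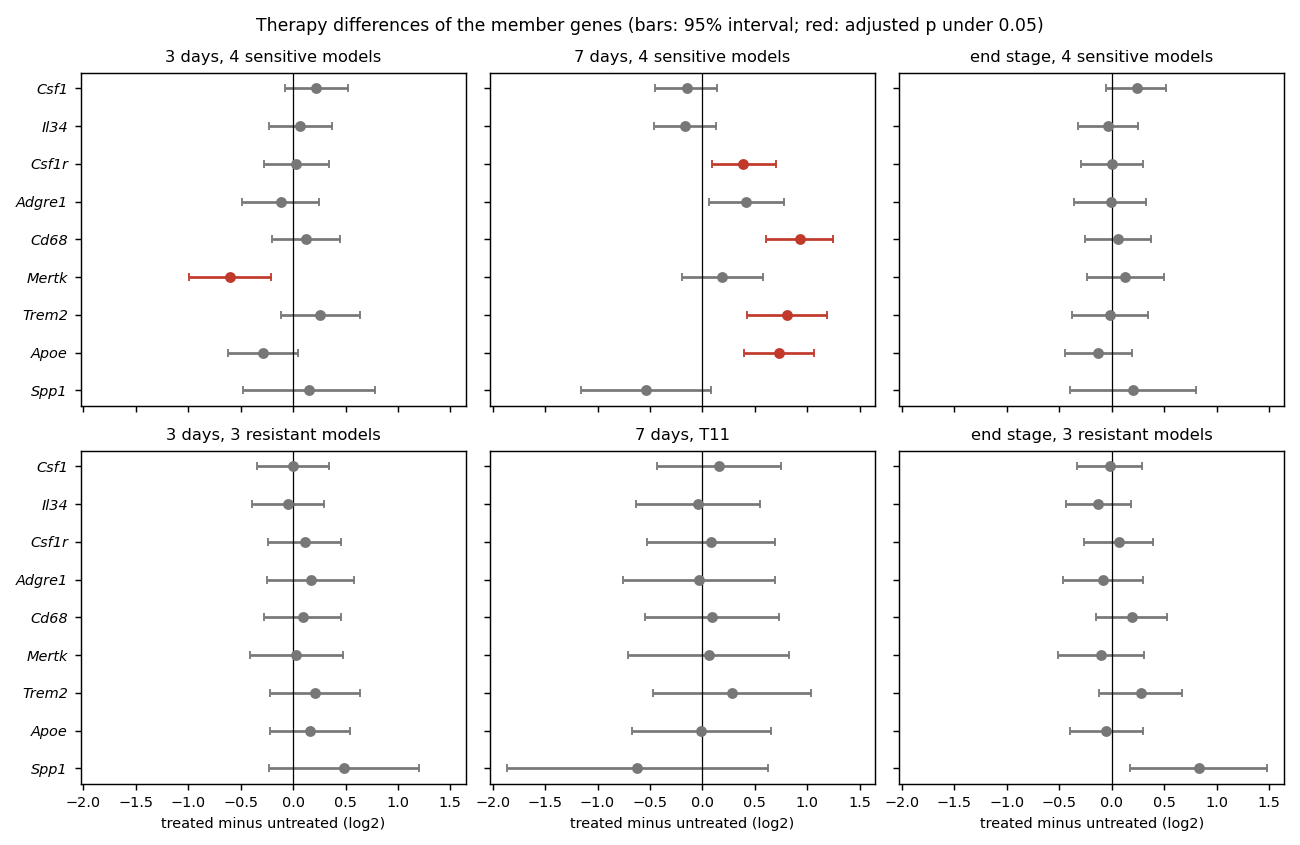
Treated minus untreated differences of the 9 genes in log2 units at 3 days, 7 days and end stage, for the 4 sensitive models (top) and the resistant models (bottom, T11 alone at 7 days), with 95% intervals and adjusted p under 0.05 in red. Cd68, Trem2, Apoe and Csf1r are red at 7 days and Mertk at 3 days, each in sensitive models, and sensitive and resistant models were not shown to differ for any of them.

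Partners of the receptor are read against the 15.5% of all genes called higher and 21.2% called lower at 7 days in the sensitive models. Of 12 signalling partners and lineage factors 8 rose and 1 fell, with a median of 0.57 beside -0.07 over all genes. Cebpa, a myeloid transcription factor, rose by 0.97 ± 0.16 (adjusted p = 1.57e-06) and the phosphatase gene Ptpn6 by 0.66 (adjusted p = 2.22e-05). Of 9 genes of other colony-stimulating factors and their receptors 5 rose and none fell, among them the dendritic cell growth factor Flt3l by 0.80 and its receptor Flt3 by 1.06. Of 12 pan-macrophage genes 8 rose and 1 fell (median 0.70), with lysozyme, Lyz2, up by 1.18 ± 0.17 (adjusted p = 8.92e-09), the oxidase subunit Cybb by 1.17 and Aif1 by 1.03. None of 9 genes of resident-like macrophages was called, with a median of 0.43. Monocyte markers had 4 of 7 higher and 1 lower, among them Chil3 by 5.71 and Ly6c2 by 2.26.

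Lists of partners of the lipid genes are set against the same shares, 15.5% higher and 21.2% lower, and were not tested against each other. Of 12 lipid-associated macrophage genes 9 rose and none fell (median 0.75), led by the lysosomal proteases Ctsb (0.88 ± 0.10, adjusted p = 9.68e-12) and Ctsd (1.29 ± 0.16, adjusted p = 9.98e-11). Several of this list are also strong in the cultured tumour lines, as given above. Of 10 genes of ApoE receptors and lipid export 3 rose and 2 fell: Nr1h3, which encodes the sterol-sensing factor LXR alpha, rose by 1.58 ± 0.23 (adjusted p = 2.62e-08), and the cholesterol exporters Abcg1 and Abca1 by 0.99 and 0.63. Of 11 genes of dead cell uptake, the relatives and partners of Mertk, 1 rose (Abca1) and 3 fell, among them the integrin gene Itgav (-0.48) and Dock1 (-0.33). Of 7 osteopontin receptors none rose and 2 fell, Itgav and Itgb1 (-0.28). Of 8 osteoclast genes 3 rose, Atp6v0d2 by 2.44, Dcstamp by 2.12 and Acp5 by 0.96.

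Controls labelled 3 days stand as "Pretreatment" in the headers, and if they were taken earlier, therapy and time cannot be told apart. At 3 days, with 15 treated and 17 untreated sensitive tumours, Mertk alone was called, lower by -0.60 ± 0.20 (adjusted p = 0.0326), beside 6.92% of genes called lower and 13.8% in either direction. T11-UV carried most of it, with 10.29, 9.68, 10.51 and 10.18 untreated and 7.75, 10.18 and 8.01 treated, a difference of -1.52 ± 0.42 (adjusted p = 0.0115). Treated replicate 2 of that model lay among its controls. Mean T11 markers were 7.29, 8.69 and 7.98 in the same treated tumours, low in both with low Mertk, and 8.56 to 8.77 in the controls, and their part in the result was not tested. In KPB25L-UV Mertk was 10.27, 9.93, 10.22 and 9.30 untreated and 9.37, 8.89 and 8.83 treated, and T11-Apobec had 9.75, 10.07, 10.36 and 10.09 against 10.15, 10.48, 9.82 and 9.95. Both overlapped. Untreated KPB25L-UV replicate 3, at 10.22, holds T11 transcripts, and without it Mertk differed by -0.58 over the 4 models (adjusted p = 0.0249). The call was lost with a flow cell term (-0.51, adjusted p = 0.148), among the groups compared alone (adjusted p = 0.0561), in the models whose arms shared a flow cell (-0.74, adjusted p = 0.0577) and in 6 of 32 refits without 1 tumour, with values down to -0.49 without T11-UV treated replicate 1. Cd68 was called in KPB25L at this time, with 11.95, 12.49, 11.85, 11.85 and 12.21 untreated and 12, 13.30, 12.24, 13.61 and 13.76 treated, a difference of 0.91 ± 0.29 with overlap (adjusted p = 0.0232, beside 14.4% of genes). The arms of KPB25L were not read on 1 shared flow cell at 3 days, which limits this call.

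No member was called at 3 days in resistant models (0 members and 461 genes at an unadjusted p under 0.05, 0% of genes called) or between the classes (1 member and 1815 genes, 0% called). By end stage no member differed past the threshold in sensitive models, where 0 members had an unadjusted p under 0.05 and 0.0288% of genes were called. In 0 of these models did both arms share 1 flow cell at end stage, so the comparison could not be repeated within a flow cell. Cd68 differed by 0.06 ± 0.16 (95% interval -0.25 to 0.37) and Trem2 by -0.02 ± 0.18 (95% interval -0.38 to 0.35) at that time, or by 0.08 and 0.01 without the library holding T11 transcripts. In resistant models at end stage 0 members were called, beside 0% of genes, and 1 member, Spp1, had an unadjusted p under 0.05 (0.83 ± 0.33, adjusted p = 0.796), as had 1241 genes. The classes did not differ in a member past the threshold at end stage (0 members and 748 genes at an unadjusted p under 0.05, 0% called). Over the 19 comparisons of single models at all times, 8 of 171 member tests were called. In the same comparisons 0 to 29.4% of all genes were called in either direction. Members were not tested against these shares. No end-stage comparison gave a member call.

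Csf1r, Cd68 and Adgre1, but not Mertk, were called lower in untreated tumours at end stage than at 3 days. Averaged over T11, T11-UV, T11-Apobec, KPB25L, KPB25L-UV, p53-2225L and p53-2336R, the 7 models that were also treated, Cd68 fell by 0.41 on the log2 scale (SE 0.12, adjusted p = 0.0186), Csf1r by 0.37 (SE 0.11, adjusted p = 0.031) and Adgre1 by 0.40 (SE 0.13, adjusted p = 0.0468), 3 of 9 members beside 4.29% of genes called lower and 5.35% in either direction. In T11, Cd68 went from 12.58 to 13.02 at 3 days to 12.36 to 12.53 at end stage, without overlap. T11-UV went the other way, from 12.61 to 12.77 to 12.72 to 13.25. In KPB25L-UV it averaged 12.90 ± 0.56 (SD, n = 4) at 3 days and 11.63 ± 0.27 (n = 6) at end stage, or 12.84 and 11.56 without the libraries holding T11 transcripts. Csf1 differed by -0.32 ± 0.11 (adjusted p = 0.0522) and Trem2 by -0.34 ± 0.14 (adjusted p = 0.133), neither called, while Spp1 (-0.09 ± 0.23), Apoe (-0.04 ± 0.12) and Mertk (-0.02 ± 0.14) had intervals on both sides of 0. Adgre1 lost its call in 39 of 66 refits without 1 tumour and Csf1r in 5. Without the libraries holding T11 transcripts these 3 were called, and Csf1 as well (-0.33, adjusted p = 0.0221).

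The other models with untreated tumours at both times did not share 1 direction. In KPB-1A, Adgre1 was 7.80 and 7.69 at 3 days and 9.86 to 10.26 in 5 end-stage tumours, and Csf1r was 10.96 and 10.81 against 11.04 to 11.91, both higher without overlap. Cd68 averaged 10.18 at both times there. The single end-stage tumour of p53-9263-3 had Csf1r at 9.63, Cd68 at 9.66 and Adgre1 at 7.67, below its 3-day ranges of 12.71 to 12.90, 11.81 to 12.23 and 10.58 to 10.93. That of p53-2224L had Csf1r at 11.92 and Cd68 at 10.35, below its 3-day tumours, and Adgre1 at 9.99, among them.

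Of 12 pan-macrophage genes 7 fell with growth over the 7 models and none rose, among them Aif1 (-0.68 ± 0.15, adjusted p = 0.00206) and Cybb (-0.56), and of 12 receptor partners and lineage factors 7 fell, among them Spi1 (-0.57) and Tyrobp (-0.47), the adaptor of Trem2. Of 9 resident-like genes 2 fell, Timd4 (-1.57) and Folr2 (-0.69). Lipid-associated genes had 1 of 12 lower, Ctsb (-0.25). T cell markers (6 of 8 lower) and dendritic cell markers (6 of 8 lower) moved the same way, and neutrophil markers had 2 of 8 higher, beside 4.29% of all genes called lower and 1.06% higher. The part of these lists in the result was not tested.

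Against normal mammary gland, end-stage tumours had more Trem2 and Spp1 and less Csf1r, Il34 and Apoe. Averaged over KPB-Primary (n = 24), C3-TAG (n = 11), ILC-Pik3Ca/Cdh1Null (n = 10) and PyMT (n = 5), and over both gland strains, 2 members were higher, beside 31.2% of 20754 genes, and 3 were lower, beside 27.7%. In all 58.9% of genes were called. Trem2 was 6.03, 8.29, 8.09, 7.76 and 8.62 in BALB/c glands and 8.25, 8.06, 7.57 and 7.69 in FVB glands. It was 8.42, 9.61, 9.36, 9.01 and 9.53 in PyMT tumours, and the median was 9.51 in KPB-Primary (8.17 to 10.80), 10.35 in C3-TAG (8.29 to 11.33) and 11.23 in ILC-Pik3Ca/Cdh1Null (10.90 to 11.82). All ILC-Pik3Ca/Cdh1Null tumours were above every gland, while each of the other models overlapped the glands. The difference was 2.23 ± 0.25 (4.69-fold, adjusted p = 2.53e-11).

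Spp1 was 10.20, 10.92, 10.47, 9.60 and 10.28 in BALB/c glands and 11.49, 11.74, 13.32 and 13.65 in FVB glands. PyMT tumours had 18.98, 18.50, 17.20, 18.31 and 19.74, and the median was 18.29 in ILC-Pik3Ca/Cdh1Null (17.19 to 18.80), 15.62 in C3-TAG (14.62 to 17.18) and 13.13 in KPB-Primary (10.49 to 16.90). Only KPB-Primary overlapped the glands among these 4 models. Spp1 was 5.09 ± 0.46 higher on average (34.12-fold, adjusted p = 2.08e-14), from 1.96 ± 0.48 in KPB-Primary to 7.12 ± 0.69 in PyMT. Csf1r fell by 0.72 (SE 0.23, adjusted p = 0.00644), Il34 by 0.58 (SE 0.20, adjusted p = 0.0116) and Apoe by 0.83 (SE 0.27, adjusted p = 0.00807). Against FVB glands alone, Apoe (-0.79, adjusted p = 0.0839) and Il34 (-0.55, adjusted p = 0.103) were not called.

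Models differed in direction around these averages. In ILC-Pik3Ca/Cdh1Null 7 members were higher than in glands and none was lower, beside 42.3% of genes called in either direction, with Adgre1 up by 2.21 ± 0.32, Il34 by 1.14 ± 0.25, Cd68 by 1.09 ± 0.25, Csf1 by 0.85 ± 0.25 and Csf1r by 0.84 ± 0.29 (adjusted p at most 0.0138). In PyMT 2 were higher and 5 lower, beside 47.8% of genes, with Il34 at -2.05 ± 0.30, Apoe at -2.03 ± 0.41, Csf1r at -1.91 ± 0.35, Adgre1 at -1.41 ± 0.39 and Cd68 at -0.96 ± 0.30. C3-TAG had 3 higher and 1 lower, beside 66% of genes, with Adgre1 at 0.77 and Il34 at -0.98. KPB-Primary had 2 higher and 3 lower, beside 65.1%, with Csf1r at -1.32 and Csf1 at -0.53. Csf1r averaged 14.27 ± 0.25 in ILC-Pik3Ca/Cdh1Null and 11.52 ± 0.60 in PyMT, around 13.37 ± 0.24 in BALB/c and 13.48 ± 0.39 in FVB glands. The models were compared with glands and not with each other by a test.

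**Figure D5:**
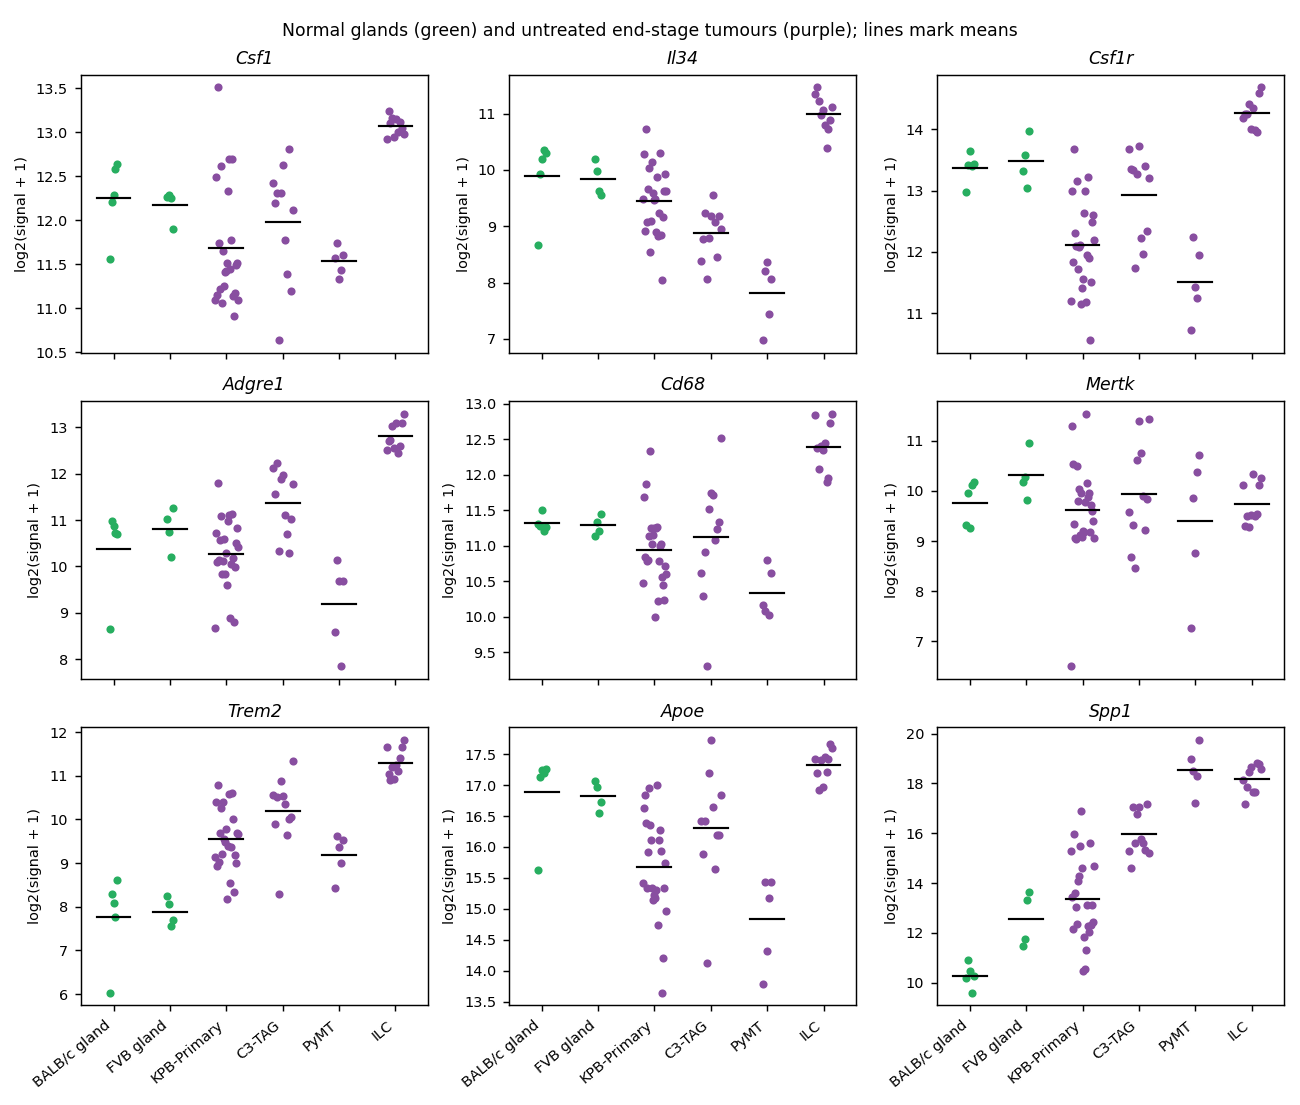
Normal mammary glands (green) and untreated end-stage tumours of 4 models (purple), 1 point per library, as log2(signal + 1), with lines at group means. Spp1 is above all glands in C3-TAG, PyMT and ILC-Pik3Ca/Cdh1Null, and Csf1r and Il34 are highest in ILC-Pik3Ca/Cdh1Null and lowest in PyMT.

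Glands differ from tumours in tissue makeup, and these values stand beside the comparison. The counts stand beside 31.2% of all genes called higher in tumours and 27.7% called lower, 58.9% in either direction. Adipocyte markers were lower in tumours for 6 of 6 genes (median -8.94) and T cell markers for 8 of 8 (median -5.11), while 6 of 8 epithelial markers were higher. Summed adipocyte markers were 16.80 to 20.36 over the 9 glands and 6.37 to 16.11 over the tumours. Their part in the results was not tested. Of 12 pan-macrophage genes 8 were higher in tumours and 1 was lower, among them Cx3cr1 by 2.45 and the Fc receptor gene Fcgr1 by 1.44. Resident-like genes went the other way, with 7 of 9 lower (median -2.16), among them Timd4 (-6.82) and Folr2 (-2.68). BALB/c gland replicate 1 stood apart from the other 4, with Adgre1 at 8.64, Il34 at 8.66 and Apoe at 15.63, fibroblast markers summing to 15.84 against 19.09 to 19.78 and T cell markers to 16.52 against 14.11 to 14.61. Leaving out any gland left the same count of 5 members called.

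Over the means of the 47 groups of model, time and arm, the member pairs most alike were Csf1 with Csf1r (Pearson r = 0.96) and Csf1r with Adgre1 (0.95), and the least alike were Spp1 with Mertk (0.35). Within groups, over all tumours of these groups, the same pairs gave 0.62, 0.79 and 0.21, while Csf1 with Apoe went from 0.74 over group means to -0.17 within groups. Groups share models and libraries differ in depth, so these are descriptions. Among all genes tested, the closest to Csf1r were Ms4a6b (0.978), P2ry6 (0.978) and Ms4a6c (0.976), and the closest to Csf1 were Milr1 (0.966), Csf1r (0.959) and Evi2a (0.956). Adgre1 was closest to Nckap1l (0.969), Ms4a6c (0.963) and C3ar1 (0.961). Cd68 was closest to Aoah (0.965), Fcgr3 (0.963) and Cd300lb (0.963), and Trem2 to the complement gene C1qc (0.969), Lpxn (0.965) and its adaptor Tyrobp (0.964). Il34 was closest to Arhgap22 (0.95), Cdh15 (0.936) and Fam19a1 (0.935). The closest genes were less alike for Spp1 (Hbegf, 0.909; Ptprn, 0.895; Ppp1r18, 0.885), Apoe (Atp6ap1, 0.895; Srxn1, 0.889; Zeb2os, 0.88) and Mertk (Kdelc2, 0.856; Zc3h12c, 0.852; Slc6a9, 0.846).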

How the data were processed

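RNA of tumours, normal glands and cultured lines was sequenced, and each deposited table holds, per the file headers, signal per gene after upper-quartile scaling by the authors. STAR, SAMtools, Picard, Salmon and the build mm10 are named in the submitters' processing notes, which give no versions, order or settings. Of 45724 and 47480 gene entries in the tumour and line tables, 39 and 27 with names turned into dates and 28 repeated ones were left out. Depth was estimated from the spacing of low values in each library, which were whole reads within 0.01 for 28.2 to 82.8% of values in tumours, so no test for counts was used. The 13 exome libraries were not analysed here.

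Tests used log2(value + 1) of the deposited signal, for the upper 66.7% by mean of genes detected in 4 samples or more. limma 3.58.1 in R 4.3.3 fitted a mean for each combination of model, time and arm (192 samples, 47 groups, 145 residual degrees of freedom), with equal weight per model in averages. Benjamini-Hochberg adjustment ran over all genes tested and calls were made at 0.05. The class comparison used 12 model means, and glands were fitted with 4 end-stage models (59 samples, 53 residual degrees of freedom). Each library has a mouse number in the labels, so p-values reflect variation among mice, pooled over the fit, and 95% intervals use the residual degrees of freedom. Some glands are pools, so for glands the variation is among libraries. The 2 libraries of 1 untreated KPB25L mouse were averaged. The same 4 mouse numbers stand in the labels for treated T11-UV at 7 days and treated end-stage KPB25L-UV tumours, all of which were kept. The fit was tested on simulated data.

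The members and lists were chosen with earlier results of these data known. Named genes were the 9 members, up to 3 called genes per list at 7 days (2 elsewhere) and the 3 genes closest to each member by Pearson r over group means, passing over predicted genes. A gene that this rule names is not reported here. Other settings listed beforehand were a pseudocount of 16, no filter by mean, median-ratio scaling, a flow cell term and only the groups compared. Also listed were no libraries holding T11 transcripts, FVB glands alone, and leaving out replicates in turn. For single models the leave-outs were run at 7 days only, and for the gland comparison only glands and PyMT tumours were left out. Added after seeing the data were the models whose arms shared a flow cell, the class comparison without libraries holding T11 transcripts, and each gland-tumour model alone.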

Additional observations from a re-analysis of the deposited data

Results flagged for a closer look

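In groups of 4 to 10 samples, the highest or lowest value was set against its nearest neighbour relative to the range of the group. Over the 9 members 378 groups were checked and 16 (4.2%) held such a value, close to the 1 in 20 that chance gives. BALB/c glands gave 3 of them, all in replicate 1: Adgre1 at 8.64 (next 10.69), Il34 at 8.66 (next 9.92) and Apoe at 15.63 (next 17.13). Csf1 was low in 1 FVB gland at 11.90 (next 12.25).

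Csf1r in untreated T11-UV at 7 days was low in replicate 3 at 12.44 (next 14.01), the tumour whose removal ended the call of Csf1r over sensitive models. Trem2 was low in 1 treated KPB25L tumour at 3 days, at 10.32 (next 11.72). Spp1 was low in 1 treated T11 tumour at 3 days, at 17.71 (next 18.39), and in 1 untreated p53-2336R tumour at end stage, at 5.94 (next 9.24). Apoe was high in 1 treated T11-UV tumour at end stage, at 17.24 (next 16.18).

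Mertk held 7 of the 16. At end stage it was high in single treated tumours of T11-UV at 12.51 (next 10.59) and T11-Apobec at 10.73 (next 10.08), in 1 untreated p53-2225L tumour at 9.91 (next 9.06) and in 1 KPB-1A tumour at 9.26 (next 9.07). It was low in 1 treated p53-2336R tumour at end stage at 8.03 (next 9.29), in 1 treated T11 tumour at 7 days at 10.46 (next 10.75) and in 1 untreated p53-9263-3 tumour at 3 days at 6.29 (next 7.34).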

How the results depend on the processing

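Of the member differences recomputed under other settings, 1793 kept their side of the threshold, 23 lost a call, 19 gained one and 1 turned. A turn was counted only where the difference was called in the main or the other setting. The 1793 may thus include changes of direction among differences not called. The turn counted was Cd68 between untreated T11 and KPB25L (-0.25 with a flow cell term). No paired analysis was possible because the replicate numbers in the labels do not name mice or batches shared between arms.

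With a flow cell term 36 genes were called between sensitive models and T11 at 7 days (1 in the main analysis), 0 members and 272 genes in sensitive models at 3 days (1 and 2886), 114 in resistant models at 3 days (0), 1 in resistant models at end stage (0), 0 members and 389 genes between T11 and KPB25L (3 and 6786), and 5 member calls in single models (8). With the spread set only by the groups compared, the counts were 0 genes between sensitive models and T11 at 7 days, 0 members and 0 genes in sensitive models at 3 days, 3 genes each in sensitive (6) and resistant (0) models at end stage, 6 members between T11 and KPB25L, and 5 members and 2436 genes with growth (3 and 1115). Without the filter by mean, 8 genes were called in T11 and 14 between sensitive models and T11 at 7 days, 9 in resistant models and 1 between classes at 3 days, and 18 and 3 likewise at end stage. A pseudocount of 16 gave 7 genes between sensitive models and T11 at 7 days and 7 in resistant models at end stage. Without the libraries holding T11 transcripts these counts were 5 between sensitive models and T11 at 7 days, 1 between classes at 3 days and 12 in sensitive models at end stage. Models whose arms shared a flow cell gave 6 genes between sensitive models and T11 at 7 days and 0 members at 3 days. No sensitive model met that condition at end stage. Median-ratio scaling called 5 members between T11 and KPB25L, and FVB glands alone 3 members (5 with both strains).

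Leaving out 1 sample at a time gave 3 to 5 members and 6335 to 8539 genes in sensitive models at 7 days, 0 to 0 members and 0 to 0 genes in T11, and 0 to 0 members and 0 to 27 genes between them. At 3 days it gave 0 to 1 members and 145 to 6576 genes in sensitive models, 0 to 0 and 0 to 0 in resistant models, and 0 to 0 and 0 to 1 between them. At end stage it gave 0 to 0 and 1 to 14, 0 to 0 and 0 to 5, and 0 to 0 and 0 to 0. For T11 against KPB25L the ranges were 2 to 4 members and 5847 to 6476 genes, for growth 1 to 4 and 787 to 1318, and for the class comparison (1 model at a time) 0 to 5 and 0 to 2235. For tumours minus glands, with only glands and PyMT tumours left out in turn, the ranges were 5 to 5 and 11492 to 12374. In single models at 7 days they were 0 to 3 and 793 to 2192 in T11-UV, 2 to 3 and 2604 to 7147 in T11-Apobec, 0 to 0 and 0 to 44 in KPB25L, and 1 to 3 and 1913 to 5539 in KPB25L-UV.

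Signal has no counts, so the depth of a value is known only as estimated reads per library. T11 stood alone for the resistant class at 7 days with 4 tumours an arm, and its 95% interval reaches 0.73 for Cd68. The 6 cultured lines had no replicates.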

Other observations

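At 3 days in sensitive models, neutrophil markers had 4 of 8 genes higher with a median of 1.19, monocyte markers 3 of 7 (0.75) and T cell markers 0 of 8 (0.19), beside a median of -0.07 and 6.93% called higher over all genes. At 7 days neutrophil markers had 1 of 8 higher, Camp by 1.30, and T cell markers 8 of 8, beside 15.5% of all genes. Dendritic cell markers went from 0 of 8 at 3 days to 6 of 8 at 7 days, among them Clec9a, a marker of cross-presenting dendritic cells, by 1.47 ± 0.27 and Ccr7, the receptor that guides migration to lymph nodes, by 1.83 ± 0.35. The 3-day and 7-day differences were not tested against each other.

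Tumours minus glands, the liver X receptor gene Nr1h3 differed by -3.20 ± 0.21, and the lipid uptake genes Lpl and Cd36 by -6.60 ± 0.48 and -6.65 ± 0.58, beside the low adipocyte markers. Dcstamp, a fusion gene of osteoclasts and giant cells, went the other way, higher in tumours by 3.20 ± 0.45, as was the osteopontin receptor Cd44 by 1.54 ± 0.23, while another, Itga4, was lower (-2.74 ± 0.29).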
